A study of Mus musculus with 5 samples.

Results

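Cytochrome P450 enzymes are heme proteins that insert an oxygen atom into drugs, steroids, fatty acids and other lipids. The genes described here were all those on a mouse whole-genome array whose probe set was annotated to a single symbol of the P450 pattern. A rule then left out listed genes of cholesterol and bile acid synthesis and of fatty acid hydroxylation in the peroxisome proliferator response. Cyp2c70, Cyp2a12 and Cyp46a1, which act on cholesterol or bile acids, were not on that list and were kept. Of 12393 genes with a singly annotated probe set, 61 matched the pattern, 6 of these were left out by that rule, and 55 remained, in 24 subfamilies. For a gene with several probe sets, the probe set with the greatest average log2 signal across the 5 arrays was taken.

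The study measured mouse liver RNA on 5 Affymetrix arrays, 1 array per group, each from RNA of pooled livers. All mice were C57B/L, aged 8 weeks, and were kept for 2 weeks before feeding began. The groups were an atherogenic diet for 10 weeks with atorvastatin in the last 3 weeks, the atherogenic diet alone for 10 weeks, standard chow for 10 weeks, the atherogenic diet for 1 week, and standard chow for 1 week. The atherogenic diet is a feed given to raise blood cholesterol, and atorvastatin inhibits the rate-limiting enzyme of cholesterol synthesis. The sources used here do not give the sex of the mice, how many livers made up a pool, or what the diet contained. The 1-week diet sample is called chow in its source name, but its title, description and protocols name the diet, and it was grouped by its title. There were no replicates, so no difference below was tested, no error can be given, and the number of arrays limits the precision. Every value describes 1 pool on 1 array.

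In liver, P450 enzymes of families 1 to 3 carry most of the oxidation of drugs and foreign compounds, and many are controlled by receptors that bind such compounds. The constitutive androstane receptor (CAR) drives Cyp2b genes, the pregnane X receptor (PXR) drives Cyp3a genes, and the aryl hydrocarbon receptor (AHR) drives Cyp1 genes. In mice a number of P450 genes also differ between male and female liver under the control of growth hormone. Members of family 4 hydroxylate fatty acids and eicosanoids, and the higher families make or break down steroid hormones, retinoic acid and vitamin D.

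The deposited values are linear signals, with a trimmed mean of 500 on every array, and the rank correlation between arrays was 0.911 to 0.946. A floor of 138.9, the 40th percentile of all signals, stood for the lowest usable signal, and a gene counted as measured in a comparison if it lay above the floor on at least 1 of the arrays compared. The 10-week chow array stood apart from the others. Its highest signal was 73473, against 34878 to 51285 on the other arrays, and its spike-in controls had a geometric mean signal of 6193, against 1075 to 2016 elsewhere. Of 12 hepatocyte markers 11 had their highest signal on that array, and their median log2 ratio of 10-week over 1-week chow was 0.68. The 18S ribosomal RNA control had a signal of 13944 on the atorvastatin array and 437 to 2185 on the others. Macrophage and Kupffer cell markers had their lowest summed signal on the 10-week chow array, with 24311 with atorvastatin, 16369 on the 10-week diet, 9368 on 10-week chow, 12754 on the 1-week diet and 14044 on 1-week chow. Xist, a transcript of female cells, had signals of 2310 to 4674, and of the Y-linked genes with a probe set only Kdm5d passed the floor, on the 10-week chow array alone at 187.

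Of the 55 P450 genes, 39 were above the floor on all arrays, 10 on some of them, and 6 on none. The 6 were Cyp2c65, Cyp2d12, Cyp4f18, Cyp11a1, which starts steroid hormone synthesis, and Cyp24a1 and Cyp27b1, which inactivate and activate vitamin D. After 10 weeks of diet 1 of 48 measured P450 genes was at least 2-fold higher than on 10-week chow and 2 were lower, where 3.59% of all genes passed 2-fold upward and 3.07% downward. The median log2 ratio of the P450 genes was -0.10, against 0.05 for all genes. After 1 week of diet 1 of 44 was higher and 1 lower than on 1-week chow, where 1.06% of all genes were higher and 1.24% lower, with medians of -0.02 for the P450 genes and -0.03 for all. With atorvastatin 3 of 47 were higher and 1 lower than on the diet alone, where 2.15% of all genes were higher and 2.12% lower, with medians of 0.04 and -0.02. Against 10-week chow, the atorvastatin array had 3 of 48 higher and 2 lower, beside 3.05% and 2.46% of all genes. The share of measured P450 genes past 2-fold in either direction was 6.25% for the diet at 10 weeks, beside 6.65% of all genes, and 4.55% at 1 week, beside 2.3%. It was 8.51% for atorvastatin over the diet, beside 4.27%, and 10.4% over 10-week chow, beside 5.51%. These P450 shares rest on 2 to 5 genes each and were not tested. The genes past 2-fold in at least 1 of these 4 comparisons numbered 10, which is 20.4% of the 49 measured in at least 1 of them, beside 12.6% of all genes. In the same direction at both diet times 0 of 44 P450 genes passed 2-fold, as did 0.249% of all genes. Because each sample is whole liver, fewer cells of a type and less RNA per cell cannot be told apart in any of these ratios.

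**Figure D1:**
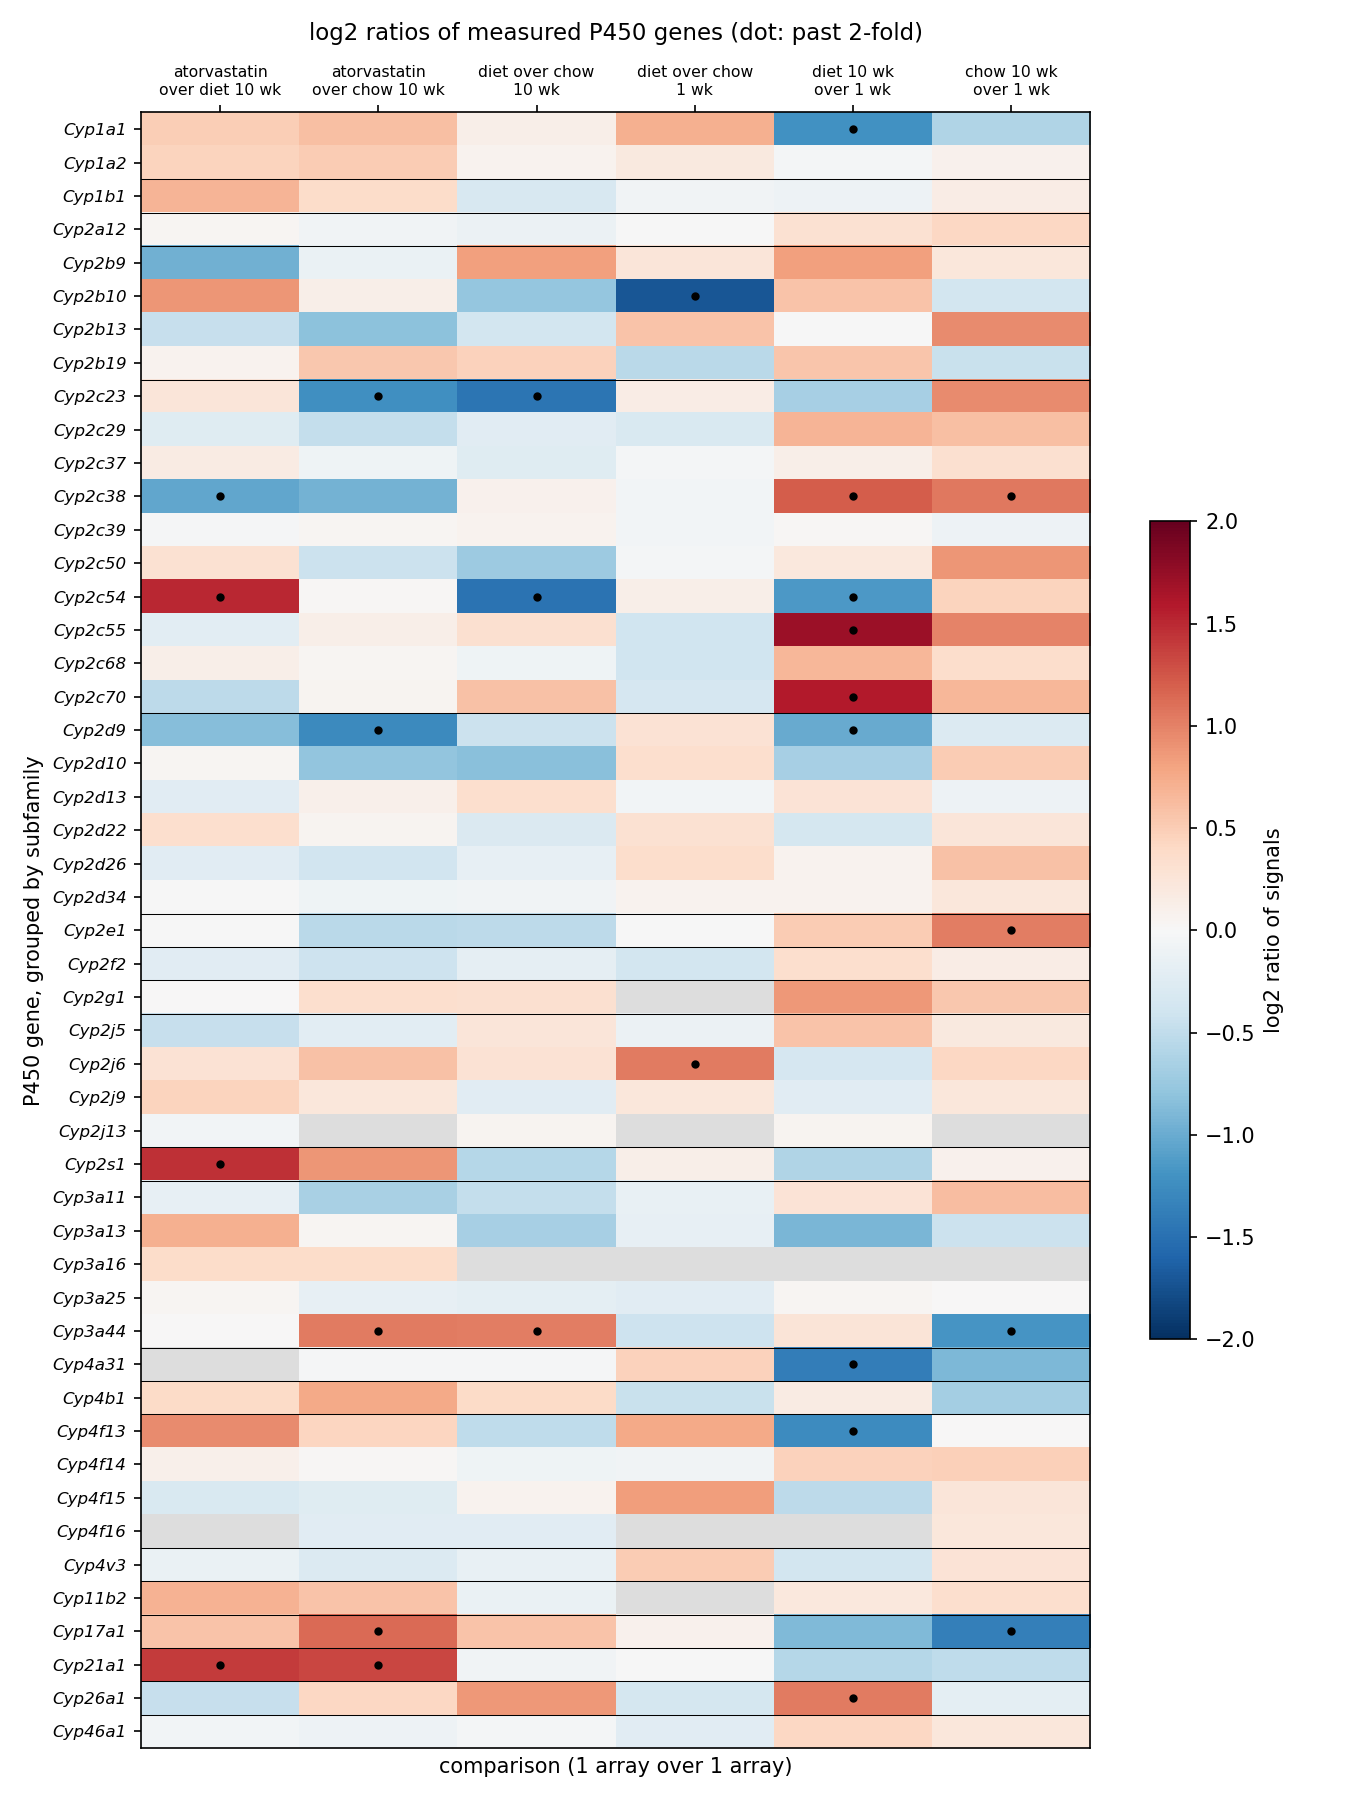
Log2 ratios of the P450 genes measured in at least 1 comparison (rows, grouped by subfamily) in 6 comparisons of 1 array over 1 array (columns), with red for higher and blue for lower in the group named first, grey where neither array was above the floor, and a dot where the ratio passed 2-fold. Most cells are pale, and the dots of the diet and atorvastatin comparisons fall on 10 genes.

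Cyp2b10, the mouse P450 known best as a CAR target, was the 1 P450 gene at least 2-fold lower after 1 week of diet. Its signal was 7078 with atorvastatin, 3847 on the 10-week diet, 6550 on 10-week chow, 2588 on the 1-week diet and 8474 on 1-week chow. Both diet arrays without the drug were thus below all the others, and the atorvastatin array lay between the chow arrays. The log2 ratio of diet over chow was -1.71 at 1 week and -0.77 at 10 weeks, and that of atorvastatin over the 10-week diet was 0.88. A pair of further probe sets for Cyp2b10 kept this order of diet and chow, with -1.37 and -1.73 at 1 week, -0.71 and -0.85 at 10 weeks, and 0.92 and 0.74 for atorvastatin over the diet. Only the 1-week ratios passed 2-fold, and they did so on all 3 probe sets.

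Its relatives had other patterns. Cyp2b9, a female-biased gene in mouse liver, had signals of 4823 with atorvastatin, 9396 on the 10-week diet, 5296 on 10-week chow, 5321 on the 1-week diet and 4516 on 1-week chow. Its 10-week diet signal was the highest of the 5, with a log2 ratio of 0.83 over 10-week chow and -0.96 for atorvastatin over the diet, both inside 2-fold. Cyp2b13, also female-biased, was at -0.37 for the diet at 10 weeks and 0.58 at 1 week. Cyp2b19, known from skin, stayed at signals of 146 to 226, close to the floor.

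The sequences before the start sites of these 3 Cyp2b genes show how far Cyp2b10 differs from the other two. Over 250 bases upstream of the annotated start (RefSeq, GRCm38.p6), Cyp2b9 and Cyp2b13 were 99.2% identical, and Cyp2b10 was 71.0% identical to either. The capitals mark exact matches, on either strand, to AGGTCA, a core of nuclear receptor elements, or GCGTG, the core of the AHR element. All 3 lie on the forward strand, at chr7:25897408-25897657 for Cyp2b10, chr7:26173159-26173408 for Cyp2b9 and chr7:26061245-26061494 for Cyp2b13.
Cyp2b10: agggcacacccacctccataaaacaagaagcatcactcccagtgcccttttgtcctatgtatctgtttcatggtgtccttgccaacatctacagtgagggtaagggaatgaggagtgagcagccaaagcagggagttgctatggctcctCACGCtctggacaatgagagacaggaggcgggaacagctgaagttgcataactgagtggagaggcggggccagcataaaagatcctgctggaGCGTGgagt
Cyp2b9: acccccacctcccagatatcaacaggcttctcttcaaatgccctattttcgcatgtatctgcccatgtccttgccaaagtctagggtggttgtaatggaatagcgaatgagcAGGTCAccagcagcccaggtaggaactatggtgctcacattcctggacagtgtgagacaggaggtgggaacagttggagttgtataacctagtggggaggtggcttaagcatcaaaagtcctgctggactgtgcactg
Cyp2b13: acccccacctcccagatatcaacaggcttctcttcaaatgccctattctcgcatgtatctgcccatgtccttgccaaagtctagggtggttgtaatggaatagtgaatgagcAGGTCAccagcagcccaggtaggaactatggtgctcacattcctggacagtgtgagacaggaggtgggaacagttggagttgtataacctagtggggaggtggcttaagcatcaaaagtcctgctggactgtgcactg
AGGTCA stood in the window of Cyp2b9 and Cyp2b13 and not in that of Cyp2b10, which held GCGTG at 2 places, once on each strand. A match describes the letters and is no evidence of binding. Bases further upstream were not searched, so absence from the window says nothing about them.

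**Figure D2:**
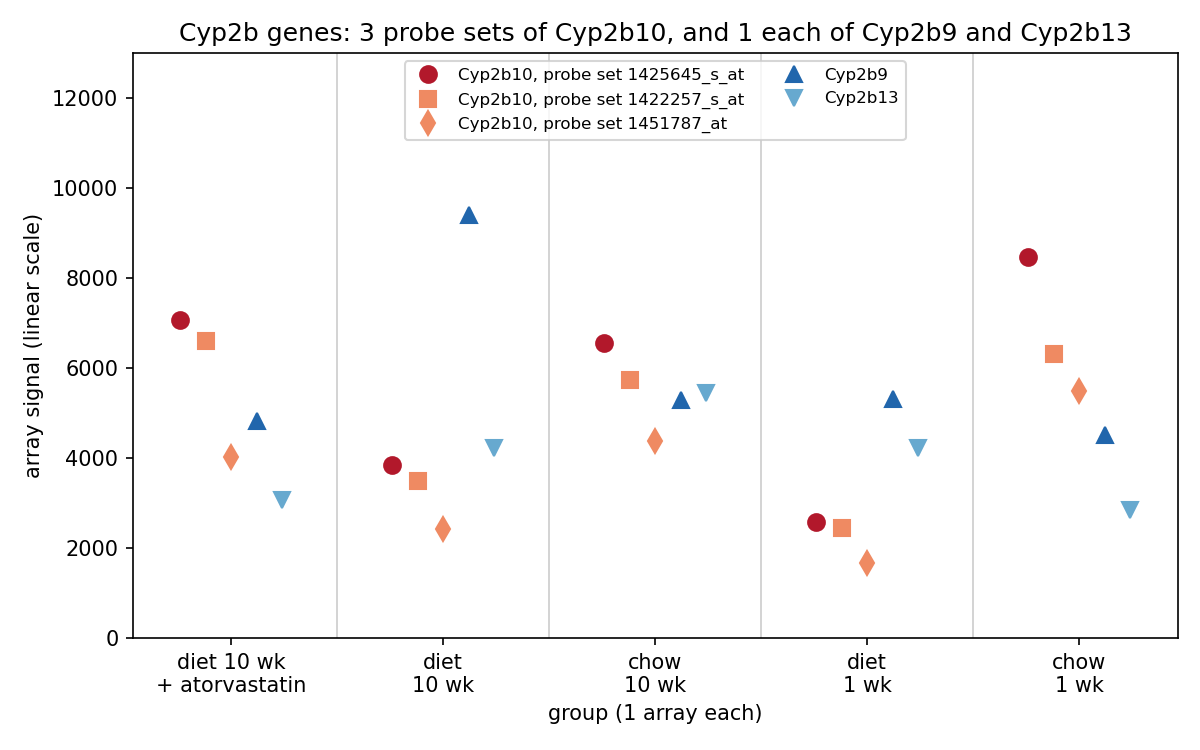
Linear array signal (vertical axis) of 3 probe sets of Cyp2b10 (circle, square, diamond) and 1 each of Cyp2b9 and Cyp2b13 (triangles) in the 5 groups, 1 array each. All 3 Cyp2b10 probe sets are lowest on the 1-week diet and next lowest on the 10-week diet, and Cyp2b9 is highest on the 10-week diet at 9396.

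The Cyp2c subfamily, enzymes of drug and arachidonic acid oxidation, had 11 genes here, of which 10 were measured. Cyp2c54, an enzyme of arachidonic and linoleic acid oxidation, had signals of 8179 with atorvastatin, 2870 on the 10-week diet, 8016 on 10-week chow, 6388 on the 1-week diet and 5904 on 1-week chow. The 10-week diet array was lower than all 4 others, with a log2 ratio of -1.48 over 10-week chow and 1.51 for atorvastatin over the diet. At 1 week the diet ratio was 0.11. The other chow array gave -1.04, so Cyp2c54 was the 1 P450 gene at least 2-fold lower on the 10-week diet than on either chow array.

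Cyp2c23, an arachidonic acid epoxygenase, had signals of 4818 with atorvastatin, 4063 on the 10-week diet, 11240 on 10-week chow, 6460 on the 1-week diet and 5854 on 1-week chow. Here it was the 10-week chow array that stood high. The log2 ratios over it were -1.22 with atorvastatin and -1.47 for the diet, but -0.28 and -0.53 over the 1-week chow array. Between the chow arrays themselves the ratio was 0.94.

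Cyp2c38 had signals of 2164 with atorvastatin, 4448 on the 10-week diet, 4173 on 10-week chow, 1931 on the 1-week diet and 2004 on 1-week chow. Atorvastatin over the diet was -1.04, the 1 P450 gene lower past 2-fold in that comparison, and the atorvastatin signal lay near those of both 1-week arrays. The 10-week arrays without the drug were higher than their 1-week counterparts, by 1.20 on the diet and 1.06 on chow. Its neighbour Cyp2c39, which oxidises retinoic acid in mice, had signals of 612 to 655 on all 5 arrays.

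Cyp2c68 had the highest mean log2 signal of the subfamily's probe sets, with 19547 with atorvastatin, 17977 on the 10-week diet, 18998 on 10-week chow, 11318 on the 1-week diet and 14912 on 1-week chow. Its ratios for diet and drug stayed inside 2-fold. Cyp2c70, which makes muricholic acids in mice, was 0.59 for the diet at 10 weeks and -0.34 at 1 week, and the 10-week diet stood 1.59 above the 1-week diet. Cyp2c55 was at 30.5 on the 1-week diet, under the floor, and at 457 on the 10-week diet, at least 3.29-fold higher. Across the subfamily, 9 of 10 measured genes were higher on 10-week than on 1-week chow, with a median of 0.63. For the diet at 10 weeks 6 of 10 were lower, with a median of -0.16, and at 1 week 8 of 10, with a median of -0.06.

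Cyp3a genes are PXR targets whose enzymes oxidise many drugs and steroids. Of those with a singly annotated probe set, 1 passed 2-fold in the comparisons with diet or atorvastatin at matched times. That gene, Cyp3a44, which is female-biased in mouse liver, had signals of 321 with atorvastatin, 320 on the 10-week diet, 157 on 10-week chow, 266 on the 1-week diet and 354 on 1-week chow. Only the 10-week chow array was low. The log2 ratios over it were 1.04 with atorvastatin and 1.03 for the diet, while over 1-week chow they were -0.14 and -0.15, in the opposite direction. The diet ratio at 1 week was -0.41.

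Cyp3a11, the main Cyp3a enzyme of adult mouse liver, had signals of 22672 with atorvastatin, 25510 on the 10-week diet, 35588 on 10-week chow, 20999 on the 1-week diet and 23300 on 1-week chow. It was highest on 10-week chow, and its diet ratios were -0.48 at 10 weeks and -0.15 at 1 week. All 4 singly annotated Cyp3a genes measured at 1 week were lower on the diet, by log2 ratios of -0.41 to -0.15, all inside 2-fold. A probe set shared by Cyp3a41a and Cyp3a41b, outside the rule, was at 1.18 in that comparison and 3.02 at 10 weeks. Cyp3a13 was at -0.67 for the diet at 10 weeks and 0.71 for atorvastatin over the diet.

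The upstream sequences of Cyp3a44 and Cyp3a11 are shown because these neighbours had log2 ratios of opposite sign for 10-week over 1-week chow, -1.18 and 0.61. Over the 250 bases they were 72.5% identical. Capitals mark AGGTCA and TATAAA, the letters of a TATA box. Both lie on the reverse strand and are printed 5′ to 3′ along the gene, from chr5:145805875-145806124 for Cyp3a44 and chr5:145879855-145880104 for Cyp3a11.
Cyp3a44: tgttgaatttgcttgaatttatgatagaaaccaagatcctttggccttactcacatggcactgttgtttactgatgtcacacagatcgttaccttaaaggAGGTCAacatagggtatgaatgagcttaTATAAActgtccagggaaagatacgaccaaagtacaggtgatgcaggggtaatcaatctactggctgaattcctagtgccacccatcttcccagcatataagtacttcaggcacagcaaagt
Cyp3a11: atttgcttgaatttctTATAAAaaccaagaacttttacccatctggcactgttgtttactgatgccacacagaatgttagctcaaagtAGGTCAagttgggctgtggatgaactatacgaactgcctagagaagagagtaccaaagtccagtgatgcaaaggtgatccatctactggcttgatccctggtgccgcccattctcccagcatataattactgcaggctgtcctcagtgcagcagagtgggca
Both windows held each of these sets of letters once, at different distances from the start.

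Cyp2d9, a testosterone hydroxylase with male-biased expression in mice, had its lowest signal with atorvastatin. The signals were 493 with atorvastatin, 885 on the 10-week diet, 1194 on 10-week chow, 1771 on the 1-week diet and 1443 on 1-week chow. The atorvastatin array was below all 4 others, with log2 ratios of -1.28 over 10-week chow, -1.55 over 1-week chow and -0.84 over the diet. The 10-week diet signal was also just past 2-fold lower than the 1-week diet signal. Cyp2d9 was the 1 P450 gene past 2-fold with atorvastatin against either chow array in the same direction.

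Cyp2d26, the Cyp2d gene whose probe set had the highest mean log2 signal, had signals of 12304 with atorvastatin, 14412 on the 10-week diet, 16099 on 10-week chow, 13707 on the 1-week diet and 10752 on 1-week chow. Over the diet its atorvastatin ratio was -0.23. Of 6 measured Cyp2d genes 5 were lower on the diet than on chow at 10 weeks and 5 were higher at 1 week, with medians of -0.22 and 0.30 and 0 past 2-fold at either time. Cyp2d13 was the exception at both times.

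Cyp2j genes encode epoxygenases of arachidonic acid. Cyp2j6 had signals of 277 with atorvastatin, 226 on the 10-week diet, 184 on 10-week chow, 285 on the 1-week diet and 120 on 1-week chow. The 1-week chow signal was under the floor, so the 1-week diet signal was at least 2.05-fold higher. With a floor at the 60th percentile the log2 ratio was 0.016. Cyp2j5 had signals of 5885 with atorvastatin, 8097 on the 10-week diet, 6815 on 10-week chow, 5479 on the 1-week diet and 5961 on 1-week chow, with diet ratios of 0.25 and -0.12. A second probe set of Cyp2j5 differed in sign for the diet at 10 weeks, at -0.78.

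The 4 P450 genes known to respond to AHR had higher signals with atorvastatin than on the diet alone, by log2 ratios of 0.44 to 1.46, but only Cyp2s1 passed 2-fold. Cyp2s1, a P450 found mainly outside the liver, had signals of 388 with atorvastatin, 141 on the 10-week diet, 210 on 10-week chow, 213 on the 1-week diet and 197 on 1-week chow. The atorvastatin signal was the highest and the 10-week diet signal lay just above the floor. Over 10-week chow the ratio was 0.89, and with a floor at the 60th percentile the ratio over the diet was 0.46. Cyp1a2, which oxidises caffeine and aromatic amines, had signals of 10102 with atorvastatin, 7458 on the 10-week diet, 7131 on 10-week chow, 7678 on the 1-week diet and 6683 on 1-week chow. Its ratio of atorvastatin over the diet was 0.44, while its diet ratios were 0.06 at 10 weeks and 0.20 at 1 week. The Cyp1a1 signal of 150 on the 10-week diet lay close to the floor, and its atorvastatin ratio over 1-week chow was -0.003. Cyp1a1 was at 0.49 and Cyp1b1 at 0.68 for atorvastatin over the diet, and the other probe sets of Cyp1b1 were under the floor on all arrays. Genes outside the P450 family that are linked to this receptor did not share one direction in that comparison. Ahr was at 0.55 and its partner Arnt at -0.80, while the target genes Tiparp and Nqo1 were at -0.08 and 0.01.

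P450 genes of steroid hormone synthesis, active mainly in adrenal gland and gonads, included 2 that passed 2-fold with atorvastatin. Cyp21a1, the steroid 21-hydroxylase gene, had signals of 509 with atorvastatin, 192 on the 10-week diet, 202 on 10-week chow, 287 on the 1-week diet and 287 on 1-week chow. The atorvastatin array was the highest, with log2 ratios of 1.41 over the diet and 1.34 over 10-week chow, and 0.83 over 1-week chow. A second Cyp21a1 probe set, with signals of 72.2 to 159, gave 0.19 for atorvastatin over the diet. The adrenal marker Star was at -0.19 in that comparison, and Cyp11a1 was under the floor on every array.

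Cyp17a1, the steroid 17-hydroxylase gene, had signals of 4953 with atorvastatin, 3329 on the 10-week diet, 2253 on 10-week chow, 6139 on the 1-week diet and 5814 on 1-week chow. The 10-week chow array was the lowest, with a ratio of 1.14 for atorvastatin over it, whereas atorvastatin over 1-week chow was -0.23. Chow at 10 weeks over 1 week was -1.37. Cyp11b2, the aldosterone synthase gene, was at 0.70 for atorvastatin over the diet and 0.57 over 10-week chow. The summed signal of macrophage and Kupffer cell markers, given above, was also highest on the atorvastatin array. Of 10 such markers 8 were at least 2-fold higher than on 10-week chow, beside 3.05% of all genes, with a median log2 ratio of 1.43. Over 1-week chow 3 were higher, beside 2.93% of all genes, with a median of 0.66. Over the diet 1 was higher, beside 2.15%, with a median of 0.53. This was Marco, whose diet signal of 123 was under the floor, so its ratio is a bound. Adgre1 was the marker lower than on the diet, at -0.62. All 10 passed the floor on the atorvastatin array, and their part in the P450 ratios was not tested.

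**Figure D3:**
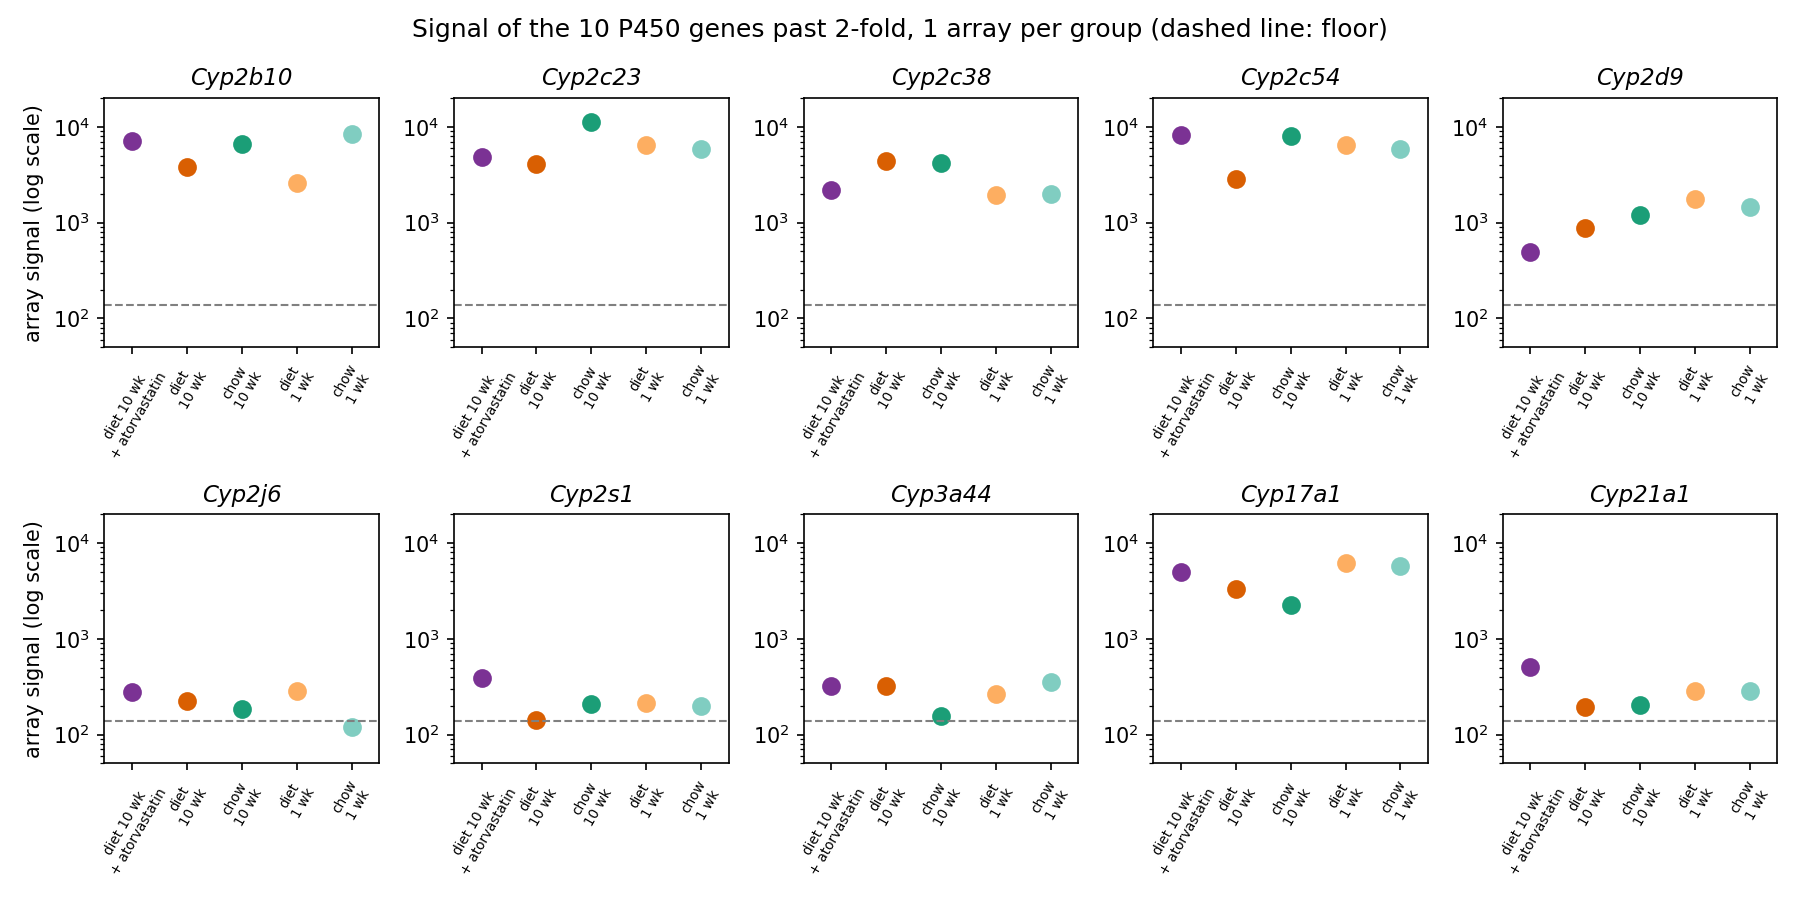
Array signal on a log scale (vertical axes, the same range in each panel) of the 10 P450 genes past 2-fold in at least 1 comparison with diet or atorvastatin, in the 5 groups with 1 array each, and the floor as a dashed line. Cyp2c54 is low on the 10-week diet array alone at 2870, Cyp2d9 is lowest with atorvastatin at 493, and Cyp2c23 is high on the 10-week chow array alone at 11240.

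Cyp2e1, the ethanol-inducible P450 of hepatocytes near the central vein, was 1.03 higher on 10-week than on 1-week chow on the log2 scale, past 2-fold, and at -0.53 and -0.54 for the diet and for atorvastatin over 10-week chow. Its diet ratio at 1 week was -0.01. The 6 measured P450 genes of central vein hepatocytes had ratios of -0.72 to 0.06 for the diet at 10 weeks, with 0 past 2-fold. Of 10 measured markers of that zone that are not P450 genes 3 were at least 2-fold lower in that comparison, beside 3.07% of all genes, and 0 higher. The 3 were glutamine synthetase Glul at -1.32, ornithine aminotransferase Oat at -1.22 and the Wnt co-receptor Lgr5 at -1.01, while Slc13a3 at 0.72, Lect2 at 0.47 and Gulo at 0.18 had positive ratios. Over 1-week chow 0 of 11 passed 2-fold, and the median was -0.10. Cyp2f2, which marks hepatocytes near the portal vein, was at -0.18 for the diet at 10 weeks, and 0 of 6 measured markers of that zone passed 2-fold there, with Pck1 just inside at -0.98. Cyp2a12, a steroid hydroxylase, was at -0.11 and Cyp2g1, known from olfactory tissue, at 0.33.

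The measured family 4 genes were inside 2-fold for diet and drug. Cyp4f15, a fatty acid hydroxylase, had signals of 1830 with atorvastatin, 2262 on the 10-week diet, 2161 on 10-week chow, 3247 on the 1-week diet and 1827 on 1-week chow. Its 1-week diet signal was the highest, at 0.83 over chow. Cyp4f13 was at 0.75 in the same comparison and Cyp4v3 at 0.50, against -0.51 and -0.14 at 10 weeks. Cyp4f13 was also at 0.94 for atorvastatin over the diet and at -1.26 for the 10-week over the 1-week diet. Cyp4a31 passed the floor on 3 arrays, and its 10-week diet signal was at least 2.62-fold lower than its 1-week diet signal. A probe set shared by Cyp4a31 and Cyp4a10, outside the rule, had signals of 17315 to 28330 and was at -0.29 in that comparison. Cyp26a1, which breaks down retinoic acid, was at 0.87 for the diet at 10 weeks, -0.35 at 1 week and 1.04 for the 10-week over the 1-week diet. Cyp46a1, a cholesterol hydroxylase of brain, had signals of 216 to 295. Past 2-fold in at least 1 of the 4 comparisons with diet or atorvastatin were 20.4% of measured P450 genes, beside 12.6% of all genes. Over all 6 comparisons the share of all genes was not counted. Of the 49 P450 genes above the floor on at least 1 array, 32 were inside 2-fold in all 6 comparisons. These include Cyp2c29, Cyp2c37, Cyp2c50, Cyp2d10, Cyp2d22, Cyp2d34, Cyp2j9, Cyp2j13, Cyp3a16, Cyp3a25, Cyp4b1, Cyp4f14 and Cyp4f16, and among them Cyp2d10 at -0.84 and Cyp2c50 at -0.72 had the lowest ratios for the diet at 10 weeks.

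Arrays of the same feed at different times are set beside these counts. Such pairs differ in time on feed and in the age of the mice, so they are not a comparison without any difference. Between 10 and 1 week of diet 4 of 47 measured P450 genes lay at least 2-fold above and 5 at least 2-fold below, beside 4.78% and 3.68% of all genes, which is 19.1% beside 8.45% in either direction. The 5 lower genes included Cyp1a1 at -1.21 and Cyp2c54 at -1.15. Between 10 and 1 week of chow 2 of 47 were higher and 2 lower, beside 2.44% and 1.95% of all genes, or 8.51% beside 4.39% in either direction. The median of P450 genes in the chow pair was 0.23, against 0.01 for all genes, and the SD across them was 0.552 on the log2 scale. Of 22 P450 genes with a mean signal of at least 2999, a limit set after the values were seen, 12 had their highest signal on 10-week chow. With quantile normalization that number was 4, and with cyclic loess it was 6. The matching share of all genes of such signal was not counted, so the number does not set P450 genes apart. Their median log2 ratio for 10-week over 1-week chow was 0.38, beside 0.11 for all 696 genes at that limit.

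With 1-week chow as the reference, time on feed and the age of the mice also differ. The 10-week diet array then had 4 of 46 P450 genes at least 2-fold higher and 3 at least 2-fold lower. The shares of all genes were 3.6% and 2.75%. The 4 were Cyp2b9 at 1.06, Cyp2c38 at 1.15, Cyp2c55 at 1.32 and Cyp2c70 at 1.25, and the 3 were Cyp2b10 at -1.14, Cyp2c54 at -1.04 and Cyp3a13 at -1.09. Together they were 15.2% of the P450 genes, beside 6.34% of all genes. The atorvastatin array had 1 of 47 higher, Cyp2c55 at 1.11, and 1 lower, Cyp2d9, beside 2.93% and 1.87% of all genes, or 4.26% beside 4.8% in either direction. Past 2-fold the same way against both chow arrays were 1 of 46 P450 genes for the diet, 2.17% beside 2.29% of all genes, and 1 of 47 for atorvastatin, 2.13% beside 1.59%. The comparisons with each chow array share the diet or atorvastatin array. The P450 shares past 2-fold the same way against both chow arrays are near those of all genes.

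**Figure D4:**
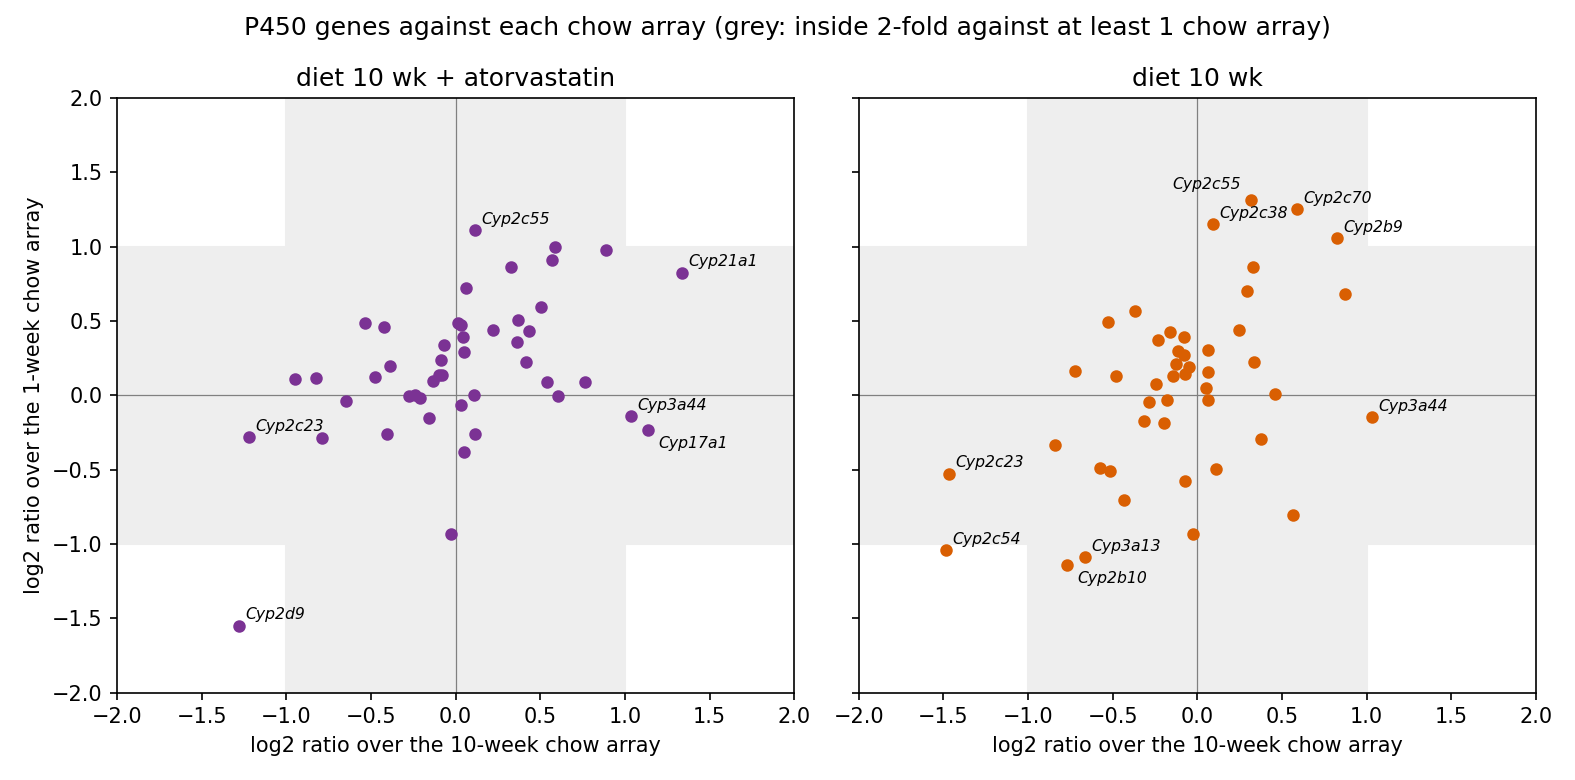
Log2 ratio of floored signals over the 10-week chow array (horizontal axis) and over the 1-week chow array (vertical axis) for each P450 gene measured against both, with atorvastatin on the left and the 10-week diet on the right. Points in the white corners passed 2-fold against both chow arrays, which holds for Cyp2d9 with atorvastatin and Cyp2c54 on the diet.

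The electron donors and heme enzymes of P450 reactions were listed as 10 genes, of which 8 had a probe set that could be used here, without the main donor gene Por. Of these 8, 0 passed 2-fold in the 4 comparisons with diet or atorvastatin, with medians of 0.12 for the diet at 10 weeks, -0.08 at 1 week, -0.16 for atorvastatin over the diet and -0.15 over 10-week chow. Over 1-week chow 2 of 8 were at least 2-fold higher on the 10-week diet, beside 3.6% of all genes. These were the cytochrome b5 gene Cyb5b at 1.47 and its reductase gene Cyb5r3 at 1.08. Over 10-week chow they were at 0.81 and 0.41, and for 10-week over 1-week chow at 0.66 and 0.67. Alas1, the first enzyme of heme synthesis, was 1.33 higher on 10-week than on 1-week chow. Of 16 measured transcription regulators of P450 genes 1 was at least 2-fold higher for the 10-week diet over 10-week chow. Of all genes 3.59% were higher there. The regulator was the nuclear receptor gene Nr0b2 at 1.10, with its lowest signal on 10-week chow. Over 1-week chow Nr0b2 was at 0.50. In the other 3 comparisons with diet or atorvastatin 0 of the regulators passed. The CAR gene Nr1i3 was at 0.41 for the diet at 1 week, where Cyp2b10 was low, and the PXR gene Nr1i2 at 0.18. Of 10 other genes of foreign compound oxidation and hydrolysis, 1 was past 2-fold in these comparisons. It was the flavin monooxygenase gene Fmo4 at -1.27 for atorvastatin over the diet, where 2.12% of all genes were lower. The epoxide hydrolase gene Ephx1 was at -0.82 for the diet at 10 weeks and -0.67 at 1 week.

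Many P450 genes lie side by side in the genome. Of 54 listed as protein-coding in the RefSeq gene table, 41 had another member within 10 protein-coding genes, forming 8 groups, and 13 stood alone. Within most groups the ratios differed in sign. The group of 10 Cyp2c genes ranged from a log2 ratio of -1.48 to one of 0.59 for the diet at 10 weeks, and the 8 genes around Cyp2b10 had ratios of -0.77 to 0.83. In the Cyp2d group all 5 measured genes had the same sign at each time, lying between -0.84 and -0.07 at 10 weeks and between 0.07 and 0.35 at 1 week.

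An upstream sequence of 250 bases was found for 43 of the 55 genes. TATAAA, on either strand, stood in 37.2% of them, against 13% of 27025 genes. AGGTCA stood in 25.6% against 13.8%, and GCGTG in 23.3% against 28.2%. GTTAAT, part of the site of hepatocyte nuclear factor 1, stood in 4.65% against 6.52%, and TTATGTAA, the site of the D-box factors, in 0 of 43 genes against 0.862%. No motif overlapped another in the printed sequences. Neighbouring genes share ancestry and sequence, so these shares are a description of related windows.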

How the data were processed

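Liver RNA pools of 5 groups were measured, 1 array each. The authors deposited 1 linear signal intensity per probe set and array, computed with MAS5 per the submitters' processing notes; detection calls were not used here. RNA was isolated with Trizol from pooled livers, per the labels' protocols. Depth has no meaning for these arrays, and their number limits precision.

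Arrays were rescaled to a common 2% trimmed mean. The 64 control probe sets were set aside, signals were floored at 138.9 and taken to log2, and ratios were formed between arrays. Of 22690 probe sets, 20393 had 1 symbol in the platform annotation, 691 had several and 1606 were not listed. A fold against a floored signal is a bound. No test was run, since each group has 1 array; genes past 2-fold were counted, beside the share of all genes. P450 subfamilies hold near-identical genes, and cross-hybridisation of probe sets was not tested.

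Signals on all 5 arrays are given for genes past 2-fold with diet or atorvastatin and for the probe set with the highest mean log2 signal in each of 7 subfamilies with at least 2 measured genes; others are given by ranges or ratios. Of the other lists up to 4 genes with the largest ratios were to be named; further ones, such as Ahr, Arnt, Tiparp, Nqo1, Slc13a3, Lect2, Gulo, Nr1i2 and Nr1i3, were chosen after their values were seen. The genes and lists were chosen with earlier results of these data known. Alternatives were other scalings, a lower (20th percentile) and a higher (60th percentile) floor, a pseudocount of 50, all probe sets averaged, a 1.5-fold rule and other chow references. The ratio code was tested on simulated data. Python 3.11.15, numpy 2.4.6, pandas 2.3.3, scipy 1.17.1, statsmodels 0.14.6 and matplotlib 3.10.9 were used. Upstream sequences and gene order came from RefSeq tables of GRCm38.p6.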

Additional observations from a re-analysis of the deposited data

Results flagged for a closer look

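The 3 P450 genes past 2-fold for the 10-week diet over 10-week chow each had the opposite sign at 1 week, and the difference between the times was not tested. The log2 ratio of Cyp2c23 was -1.47 at 10 weeks and 0.14 at 1 week. That of Cyp2c54 was -1.48 at 10 weeks and 0.11 at 1 week. That of Cyp3a44 was 1.03 at 10 weeks and -0.41 at 1 week. Both times rest on 1 array per group, and over the 1-week chow array the 10-week ratios were -0.53, -1.04 and -0.15.

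The probe set that the annotation pairs with 2 Cyp3a genes, Cyp3a41a and Cyp3a41b, was left out of the counts above. Its diet ratio at 10 weeks was larger than that of any P450 gene counted there. Its signal was 8083 with atorvastatin, 10257 on the 10-week diet, 1264 on 10-week chow, 1823 on the 1-week diet and 803 on 1-week chow. The log2 ratio of diet over chow was 3.02 at 10 weeks and 1.18 at 1 week, and that of atorvastatin over 10-week chow was 2.68. All 3 arrays of diet-fed mice lay above both chow arrays, and over the 1-week chow array the 10-week diet ratio was 3.67.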

How the results depend on the processing

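No paired analysis was possible because each group is 1 array and the labels carry no replicate numbers. Of the counts of P450 genes past 2-fold under the alternatives, 83 stayed within 1.5 times the main count and 35 did not, most of them counts of 0 to 5. For the diet at 10 weeks, the 1 higher gene became 0 with cyclic loess, with a floor at the 60th percentile or with the chow arrays averaged, and 4 with a floor at the 20th percentile, a 1.5-fold rule or 1-week chow as reference; the 2 lower became 6 at 1.5-fold and 1 with the mean of the chow arrays. At 1 week the 1 higher became 0 with the higher floor or a pseudocount and 4 at 1.5-fold, and the 1 lower became 2 with the lower floor or a pseudocount. For atorvastatin over the diet the 3 higher became 1 with the higher floor and 8 at 1.5-fold, and the 1 lower became 2 with quantile normalization or the lower floor and 3 at 1.5-fold. For atorvastatin over 10-week chow the 3 higher became 6 with the lower floor, 7 at 1.5-fold and 1 with the higher floor, 1-week chow or the mean of the chow arrays, and the 2 lower became 6 at 1.5-fold and 1 with either other chow reference. For the 10-week over the 1-week diet the 4 higher became 8 at 1.5-fold, and the 5 lower became 3 with the higher floor or a pseudocount and 10 at 1.5-fold. Between the chow arrays the 2 higher became 1 with quantile normalization or cyclic loess and 9 at 1.5-fold, and the 2 lower became 1 with the higher floor and 5 at 1.5-fold. With 1-week chow as reference the sign of 3 ratios reversed, Cyp3a44 to -0.15 for the diet and -0.14 for atorvastatin, and Cyp17a1 to -0.23 for atorvastatin. The cause was not tested. Cyp2c54 was past 2-fold under every alternative for the diet at 10 weeks (10 of 10) and for atorvastatin over the diet (8 of 8). So was Cyp2b10 for the diet at 1 week (9 of 9). The same held for Cyp2c38 with atorvastatin over the diet (8 of 8) and Cyp2d9 with atorvastatin over chow (10 of 10). Other floors could not change these ratios, because the signals lay above each floor. Nor could probe set choice for Cyp2c54, Cyp2c38 and Cyp2d9, which had 1 probe set each. These tallies therefore hold fewer separate checks than settings. Signals near the floor of 138.9, as for Cyp2s1, Cyp2j6 and Cyp3a44, limit those ratios.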

Other observations

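A probe set annotated to 2 Cyp2a genes, left out above, had signals of 16988 with atorvastatin, 19505 on the 10-week diet, 18089 on 10-week chow, 8200 on the 1-week diet and 12322 on 1-week chow. Its log2 ratio of diet over chow was 0.11 at 10 weeks and -0.59 at 1 week, and the 10-week over the 1-week diet was 1.25. Of the 44 P450 genes measured for the diet at both times, 15 were lower at both, 6 were higher at both, and the others differed in sign between the times. The matching shares of all genes were not counted, so these numbers do not set P450 genes apart. Male-biased liver genes outside the P450 family with a probe set numbered 7. Of these, the steroid dehydrogenase gene Hsd3b5 was under the floor on all arrays, at 8.4 to 17.5. Mup3, Elovl3, Gstp1 and C6 were above the floor on all 5, as was Cyp2d9, also male-biased. Slco1a1 passed the floor on 3 arrays and Susd4 on 1. The sex of the mice was not assessed further.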
